A study of Mus musculus with 6 samples.

Results

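The transcripts of the sensors of the integrated stress response and of the unfolded protein response were followed in white adipose tissues (WATs) of control mice and of mice lacking the neurotensin receptor NTSR2 in adipocytes. The set is the rows of the deposited table whose symbol is Eif2ak1, Eif2ak2, Eif2ak3, Eif2ak4, Ern1, Atf6, Atf6b, Mbtps1, Mbtps2 or Xbp1. All 10 symbols were found among the 21456 genes of the table, and all 10 were among the 16157 genes tested. The control mice carried Ntsr2 flox/flox alleles, and the Ntsr2 AKO mice carried the same floxed alleles together with Adipoq-cre, so that the recombinase acts in adipocytes while the other cells of the tissue keep the gene. Both groups were fed a chow diet, and each held 3 mice, numbered 3, 4 and 5 in the labels. The labels give the tissue as adipose, and the fat depot, age and sex of these mice are not given in the sources used here. All values are from RNA of whole tissue, in which fewer cells of a type and less RNA per cell cannot be told apart.

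Misfolded proteins in the lumen of the endoplasmic reticulum (ER) are sensed by the membrane proteins PERK (Eif2ak3), IRE1 (Ern1) and ATF6. PERK is also a kinase of the translation factor eIF2alpha, and the cytosolic kinases HRI (Eif2ak1), PKR (Eif2ak2) and GCN2 (Eif2ak4) phosphorylate the same factor in response to haem shortage or mitochondrial stress, double-stranded RNA and amino acid shortage. IRE1 cuts the Xbp1 transcript so that it encodes the active factor XBP1s, whereas ATF6 and its paralogue ATF6B are released from the membrane by the proteases encoded by Mbtps1 and Mbtps2. These proteins are switched on by phosphorylation, splicing or cleavage, none of which a transcript level reports. ER stress and both responses are well studied in adipose tissue in connection with obesity and insulin resistance.

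The Xbp1 cut site is shown because the deposited values are per gene and sum the cut and uncut transcript. On the coding transcript of 5 exons the 26 bases that IRE1 removes lie in exon 4, at chr11:5524279-5524304 on the plus strand of GRCm38, inside the coding sequence. The sequence is given with 12 bases on each side (chr11:5524267-5524316), 5′ to 3′, and the capitals mark the bases removed. Because the ends of this stretch repeat, 7 placements of it give the same cut product, and 1 of them is marked.
Xbp1 uncut: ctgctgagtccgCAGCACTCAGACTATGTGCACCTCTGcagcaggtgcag
Xbp1 cut: ctgctgagtccgcagcaggtgcag
Removal of these bases shifts the reading frame, and the open reading frame computed from the transcript changes from 267 to 371 codons. The Xbp1 values below therefore describe the total transcript and hold no measure of XBP1s.

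The promoters were searched in RefSeq windows of 300 bases (GRCm38.p6), each from 250 bases before to 50 bases after an annotated start. A window was found for 9 of the 10 genes, and Eif2ak4 had 2. Atf6 had none, so its promoter was not searched. The letters of the ER stress response element, CCAAT and CCACG separated by 9 bases of any kind, were searched on both strands and were in none of these windows, against 0.119% of all 32851 windows. Its first part alone, CCAAT, which is the box bound by NF-Y, was found in 37.4% of all windows. Eif2ak3 held it 6 times, a number reached in 26 of all windows (0.0791%), and Eif2ak1 and Atf6b held it 1 time each. Its second part, CCACG, was in 32.8% of all windows, and among the sensors Mbtps1 held it 2 times and Eif2ak1 and Ern1 1 time each. The letters CACGTC were in none of the windows of the sensors, against 6.38% of all windows. The Eif2ak3 stretch is chr6:70844274-70844503 on the plus strand, with the boxes in capitals, written ATTGG where they lie on the other strand.
Eif2ak3 promoter: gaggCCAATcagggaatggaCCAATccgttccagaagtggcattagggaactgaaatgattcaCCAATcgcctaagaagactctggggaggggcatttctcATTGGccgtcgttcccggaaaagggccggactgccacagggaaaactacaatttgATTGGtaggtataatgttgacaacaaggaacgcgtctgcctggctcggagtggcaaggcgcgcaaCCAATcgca
The pattern of GAAA repeated after 2 bases of any kind, a short form of the element bound by interferon-activated factors, was searched on both strands and was in 3.44% of all windows and, among the sensors, in Eif2ak2 alone, the kinase known as an interferon-stimulated gene. It lies 18 to 27 bases after the start, and it is shown in capitals in chr17:78882535-78882564, read from the minus strand.
Eif2ak2 start: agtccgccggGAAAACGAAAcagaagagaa
The patterns TGACGTGG and TGACGTCA, which are bound by ATF6-like and CREB-like factors, were also searched on both strands and were in none of the windows of the sensors, against 0.676% and 1.79% of all windows. A match describes letters only, and the lack of one says only that these letters are not in this window.

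None of the 10 sensors differed between the genotypes past an adjusted p of 0.05 in limma, a linear model fitted across all genes on log2(normalized count + 1). The same held in edgeR and DESeq2 on the recovered reads, and none of the 10 had an unadjusted p under 0.05 in limma, edgeR or DESeq2. In the whole table limma called 1 gene (0.00619% of the genes tested), edgeR called 0 and DESeq2 called 220 (1.5% of its 14652 genes), while 1349 genes (8.35%) had an unadjusted p under 0.05 in limma and 1323 in edgeR. A count of 0 among 10 genes is near what these shares give. The fitted difference was below 0 in 8 of the 10 sensors, against 51.0% of all genes, and its median was -0.076 on the log2 scale, against -0.0071 for all genes.

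**Figure D1:**
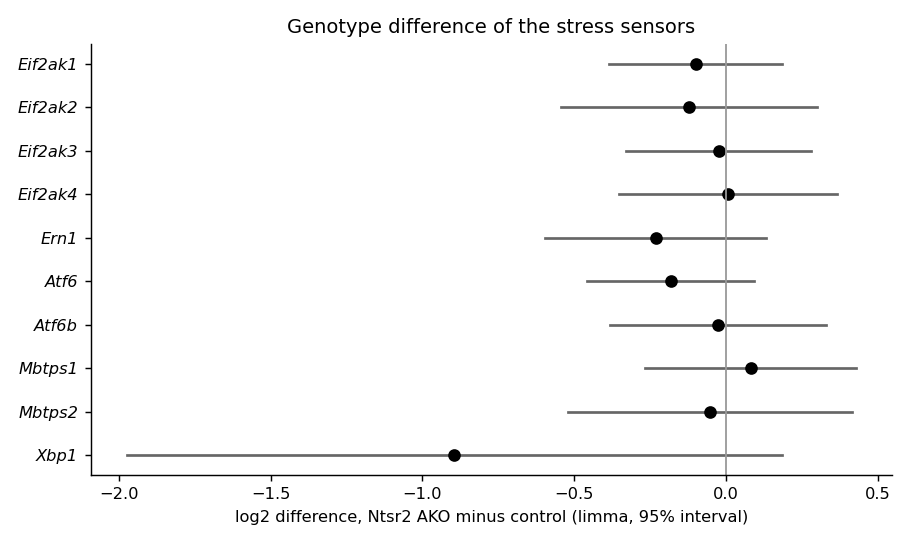
The log2 difference between Ntsr2 AKO and control mice (x axis, limma) is plotted for each sensor (y axis) with its 95% interval (line), n = 3 mice per group. All 10 intervals hold 0, and the Xbp1 interval, from -1.97 to 0.18, is much wider than the others.

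Among the eIF2alpha kinases, Eif2ak1 (chr5:143817788-143904251, 15 exons in its longest coding transcript) encodes HRI. Its normalized counts, read counts divided by a size factor for each mouse, were 2415, 2615 and 2986 in control mice 3, 4 and 5 and 2413, 2535 and 2508 in Ntsr2 AKO mice 3, 4 and 5. The groups overlapped, and control mouse 5 stood highest. The means were 2672 ± 290 and 2485 ± 64 (SD, n = 3), and the log2 difference was -0.099 (SE 0.12, 95% interval -0.38 to 0.19, limma adjusted p = 0.828). Without control mouse 5 the difference was -0.016. On the opposite strand Aimp2 shares 487 exonic bases with Eif2ak1 (8.59% of its exonic length), and the library kit does not mark strand. The same limit holds for Eif2ak3, which shares 485 exonic bases (8.05%) with Gm43292, and for Eif2ak2, which shares 174 (3.40%) with Gm26637.

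Eif2ak2 (chr17:78852564-78882573, 16 exons) encodes PKR, the sensor of double-stranded RNA. The controls had 1160, 1553 and 1278 normalized counts and Ntsr2 AKO mice had 1241, 1022 and 1410. The highest value belonged to a control mouse and the lowest to a Ntsr2 AKO mouse, with the other 4 mice mixed between them. The means were 1330 ± 202 and 1224 ± 194 (SD, n = 3), a log2 difference of -0.12 (SE 0.18, 95% interval -0.54 to 0.30, limma adjusted p = 0.865). The difference was 0.0026 without Ntsr2 AKO mouse 4 and -0.0043 without control mouse 4.

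Eif2ak3 (chr6:70844515-70905245, 17 exons) encodes PERK, the only one of these kinases that spans the ER membrane. It had 1098, 954 and 1074 normalized counts in the controls and 959, 1041 and 1073 in Ntsr2 AKO mice. The lowest value of each group was nearly the same, and the groups covered nearly the same range. The means were 1042 ± 77.1 and 1024 ± 58.7 (SD, n = 3), with a log2 difference of -0.024 (SE 0.13, 95% interval -0.33 to 0.28, limma adjusted p = 0.968). Eif2ak3 was the steadiest of the sensors: its residual SD was 0.097 on the log2 scale, and 6.33% of the genes tested had a smaller one.

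Over the 6 mice the pattern of Eif2ak3 was most like those of Ddx20, B230219D22Rik and Naa35, by the root mean square difference of log2 values centred on the mean of each gene (0.028, 0.030 and 0.032). Ddx20 had 860, 767 and 845 normalized counts in the controls and 752, 849 and 824 in Ntsr2 AKO mice. As in Eif2ak3, control mouse 4 and Ntsr2 AKO mouse 3 were the lowest, which follows from the way the gene was picked.

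Eif2ak4 (chr2:118388618-118475234, 39 exons) encodes GCN2, which is activated by uncharged tRNA. Its normalized counts were 636, 818 and 716 in the controls and 751, 734 and 685 in Ntsr2 AKO mice. The Ntsr2 AKO values lay inside the range of the controls, and the means were 723 ± 91.3 and 723 ± 34.3 (SD, n = 3). The log2 difference was 0.0070 (SE 0.15, 95% interval -0.35 to 0.37, limma adjusted p = 0.992).

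Compared per kilobase (kb) of exon, which makes different genes comparable, the kinases kept nearly the same proportions in both genotypes. Eif2ak1 made up 47.0% ± 2.81 of their summed level in the controls and 46.4% ± 2.03 in Ntsr2 AKO mice (SD, n = 3). The share of Eif2ak2 was 25.9% ± 3.02 and 25.3% ± 3.16. Eif2ak3 contributed 17.4% ± 2.26 and 18.0% ± 0.83, and Eif2ak4 9.67% ± 0.82 and 10.3% ± 0.86. In each of the 6 mice the kinases had the same order, with Eif2ak1 between 44.7% and 50.1% and Eif2ak4 between 9.13% and 10.9%. The shares depend on the length used: per kb of coding sequence Eif2ak3 made up 11.4% ± 1.59 and 11.9% ± 0.62, and Eif2ak4 5.30% ± 0.42 and 5.68% ± 0.51, in control and Ntsr2 AKO mice.

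The IRE1 arm held the most variable gene of the set, Xbp1. Ern1 (chr11:106394650-106487852, 22 exons) had 1393, 1116 and 1540 normalized counts in the controls and 1171, 1168 and 1081 in Ntsr2 AKO mice. Control mice 3 and 5 stood above the other 4 mice, and control mouse 4 lay between Ntsr2 AKO mice. The means were 1350 ± 215 and 1140 ± 51.1 (SD, n = 3), a log2 difference of -0.23 (SE 0.15, 95% interval -0.60 to 0.13, limma adjusted p = 0.698). Without control mouse 5 the difference was -0.13, and without control mouse 4 it was -0.36 (limma adjusted p = 0.578).

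Xbp1 (chr11:5520659-5525893, 5 exons), the substrate of IRE1, had by far the highest and the least even level. The controls had 47659, 26029 and 21053 normalized counts and Ntsr2 AKO mice had 28640, 9731 and 14589. Control mouse 3 was the highest and Ntsr2 AKO mouse 4 the lowest, 4.90-fold apart, and Ntsr2 AKO mouse 3 exceeded control mice 4 and 5, so the groups overlapped. The means were 31580 ± 14145 and 17653 ± 9820 (SD, n = 3). The log2 difference was -0.89 (SE 0.45, 95% interval -1.97 to 0.18, limma adjusted p = 0.630). Its residual SD was 0.70, and 82.3% of the genes tested had a smaller one. The difference ranged from -0.54 without Ntsr2 AKO mouse 4 to -1.32 without Ntsr2 AKO mouse 3.

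Xbp1 is known for its high expression in plasma cells. The 5 plasma cell markers together took at most 0.00702% of the counts of any mouse, and control mouse 3, with the most Xbp1, had their lowest sum. Transcripts of skeletal muscle separated the mice in another way. The 8 muscle markers took 3.94% of the counts in control mouse 5, 0.142% in Ntsr2 AKO mouse 4 and 0.311% in Ntsr2 AKO mouse 5, and between 0.000818% and 0.00278% in the others. Those 3 mice also had the 3 lowest Xbp1 values. Control mouse 5, with the most muscle transcripts, had more Xbp1 than Ntsr2 AKO mice 4 and 5. Over control mice 3 and 4 and Ntsr2 AKO mouse 3 alone, a choice made after the data were seen, the Xbp1 difference was -0.30. That choice leaves a lone Ntsr2 AKO mouse, whose spread cannot be measured. The part of plasma cells and of skeletal muscle in the Xbp1 values was not tested.

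By the same measure as above, the genes most like Xbp1 over the 6 mice were Izumo1, Lonrf3 and Abcg1, the last of which encodes a cholesterol exporter (root mean square differences 0.168, 0.174 and 0.216). Abcg1 had 4065, 3201 and 1761 normalized counts in the controls and 2238, 966 and 1440 in Ntsr2 AKO mice. The highest and the lowest mouse were the same as for Xbp1. In Izumo1, with only 60.7, 28.9 and 23.0 normalized counts in the controls and 34.1, 14.5 and 19.2 in Ntsr2 AKO mice, all 6 mice had the order they had in Xbp1. These genes were picked for this likeness from the same values, so a shared order follows from the choice.

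Atf6 (chr1:170704674-170867771, 16 exons) encodes the membrane-bound factor that is cleaved in the Golgi under ER stress. Its normalized counts were 2847, 2375 and 2772 in the controls and 2368, 2361 and 2295 in Ntsr2 AKO mice. All 3 Ntsr2 AKO mice were below all 3 controls, although the nearest mice, control mouse 4 and Ntsr2 AKO mouse 3, were only 7 normalized counts apart. Atf6 was the only sensor whose groups did not overlap, and all 3 Ntsr2 AKO mice were below all 3 controls in 8.16% of the genes tested. The means were 2665 ± 254 and 2341 ± 40.1 (SD, n = 3), a log2 difference of -0.18 (SE 0.12, 95% interval -0.46 to 0.093, limma adjusted p = 0.690). Under quantile normalization, which moved the median of all genes to 0.045, the Atf6 difference was -0.086.

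Atf6b (chr17:34647146-34655074, 18 exons), the paralogue, had 2651, 2011 and 1955 normalized counts in the controls and 2204, 2211 and 2025 in Ntsr2 AKO mice. Control mouse 3 stood above the rest, and the Ntsr2 AKO mice lay between it and the other controls. The log2 difference was -0.026 (SE 0.15, 95% interval -0.38 to 0.33, limma adjusted p = 0.970), with means of 2206 ± 387 and 2147 ± 105 (SD, n = 3). It was above 0 without control mouse 3 (0.11), without Ntsr2 AKO mouse 5 (0.015) and under quantile normalization (0.068).

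Of the proteases that release ATF6, Mbtps1 (chr8:119508156-119558735, 23 exons) makes the first cut, in the lumen. It had 5683, 4142 and 4913 normalized counts in the controls and 5362, 5409 and 4721 in Ntsr2 AKO mice. The controls held both the highest and the lowest value. The means were 4913 ± 770 and 5164 ± 384 (SD, n = 3), with a log2 difference of 0.081 (SE 0.15, 95% interval -0.27 to 0.43, limma adjusted p = 0.894).

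Mbtps2 (chrX:157535371-157598715, 11 exons) makes the second cut, within the membrane. Its values were 680, 861 and 1108 normalized counts in the controls and 814, 867 and 824 in Ntsr2 AKO mice. The Ntsr2 AKO mice lay close together inside the range of the controls, in which control mouse 5 was highest. With means of 883 ± 215 and 835 ± 27.8 (SD, n = 3) the log2 difference was -0.053 (SE 0.20, 95% interval -0.52 to 0.41, limma adjusted p = 0.956), and it was 0.12 without control mouse 5. Yy2, on the same strand, shares 2867 exonic bases with Mbtps2 (28.4% of its exonic length), so reads there could have been given to either gene.

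**Figure D2:**
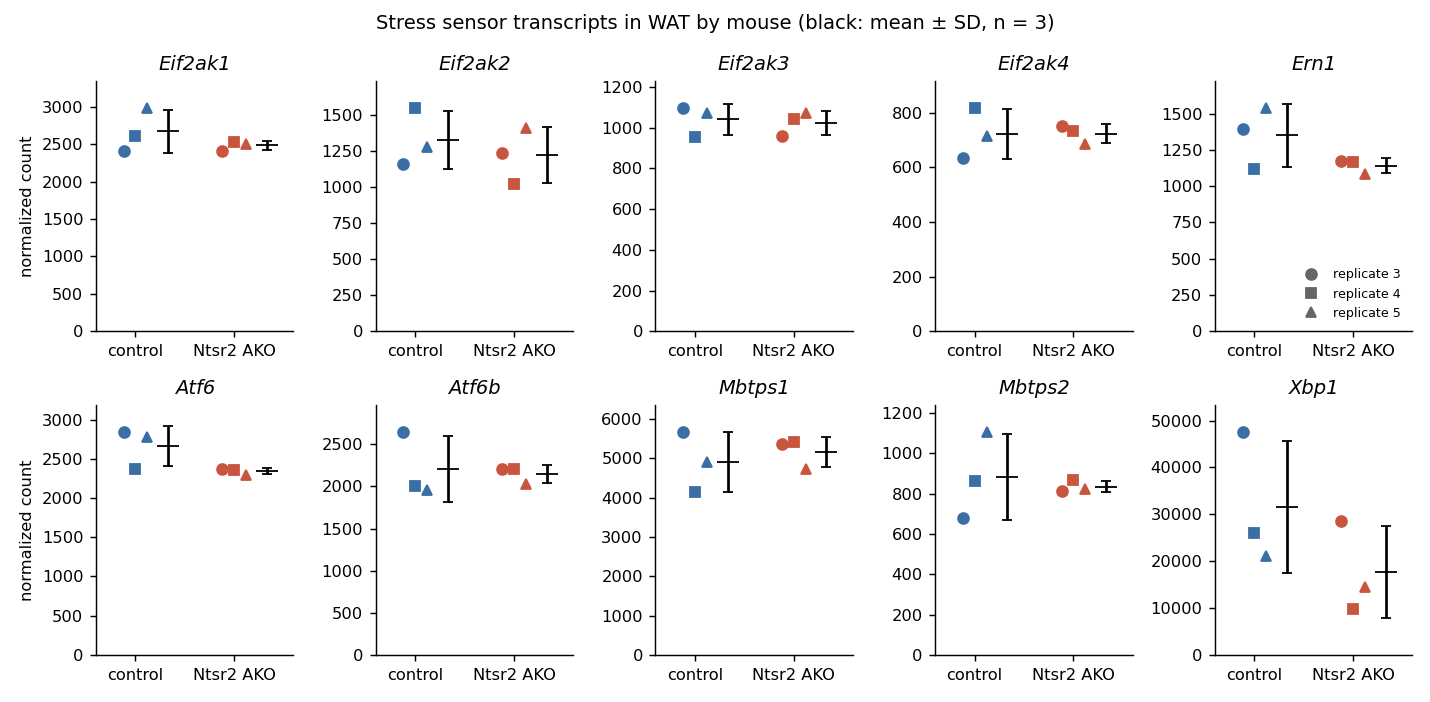
Normalized counts (y axis, from 0) of each sensor are plotted for 3 control and 3 Ntsr2 AKO mice (points, the symbol giving the replicate number), with the mean ± SD beside each group. The Ntsr2 AKO mice lie closer together than the controls for most genes, Atf6 alone has no overlap, and Xbp1 runs from 9731 to 47659.

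For all 10 sensors the highest of the 6 values belonged to a control mouse (control mouse 3 in 5 genes, control mouse 5 in 3 and control mouse 4 in 2), whereas the highest value was in a control mouse for 56.0% of all genes tested. The lowest values were spread over both groups, with 5 in each group. The SD of log2 values within the group was larger in controls for 8 of the 10 sensors, against 55.8% of all genes. Its median over the sensors was 0.22 in the controls and 0.070 in Ntsr2 AKO mice, and over all genes it was 0.28 and 0.25. Eif2ak2 and Xbp1 were the exceptions, with 0.21 and 0.23 for Eif2ak2 and 0.61 and 0.79 for Xbp1. With 3 mice in each group an SD is itself imprecise, and this difference in spread was not tested.

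Levels of the sensors were compared per length, as normalized counts per kb of the exons of all transcripts of a gene. Xbp1 was first with 7579 ± 4094 (SD, n = 6 mice), a level above that of 97.8% of the 15145 genes with a known length. Next came Atf6b with 789 ± 92.8, followed by Mbtps1 with 478 ± 53.3 and Eif2ak1 with 455 ± 37.7. The middle of the order was formed by Atf6 with 271 ± 26 and Eif2ak2 with 250 ± 36.5. These 6 genes were above the median of all genes, 191 per kb. Below it were the ER sensors Eif2ak3 with 171 ± 10.3 and Ern1 with 152 ± 22.1, and last came Eif2ak4 with 97.0 ± 8.27 and Mbtps2 with 85.0 ± 13.8.

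The pairs compared here are neighbours in this order, which was set by the same values. Of the 9 neighbouring pairs, 5 kept their order in each of the 6 mice with ranges that did not overlap (exact two-sided sign-flip test, p = 0.03125 each, the smallest that 6 mice allow, adjusted p = 0.05625 over 9 pairs, so that 0.05 could not be reached). These pairs were Xbp1 over Atf6b (log2 difference 3.09 ± 0.73), Atf6b over Mbtps1 (0.72 ± 0.12), Eif2ak1 over Atf6 (0.75 ± 0.14), Eif2ak2 over Eif2ak3 (0.53 ± 0.26) and Ern1 over Eif2ak4 (0.64 ± 0.28). Mbtps1 and Eif2ak1 were in order in 4 of 6 mice (0.068 ± 0.24, exact sign-flip p = 0.469), as were Atf6 and Eif2ak2 (0.13 ± 0.28, exact sign-flip p = 0.3125). Eif2ak3 exceeded Ern1 in 5 mice (0.18 ± 0.17, exact sign-flip p = 0.0625, adjusted p = 0.09375), and Eif2ak4 exceeded Mbtps2 in 5 mice (0.20 ± 0.21, exact sign-flip p = 0.09375, adjusted p = 0.121). The ranges of those 4 pairs overlapped.

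**Figure D3:**
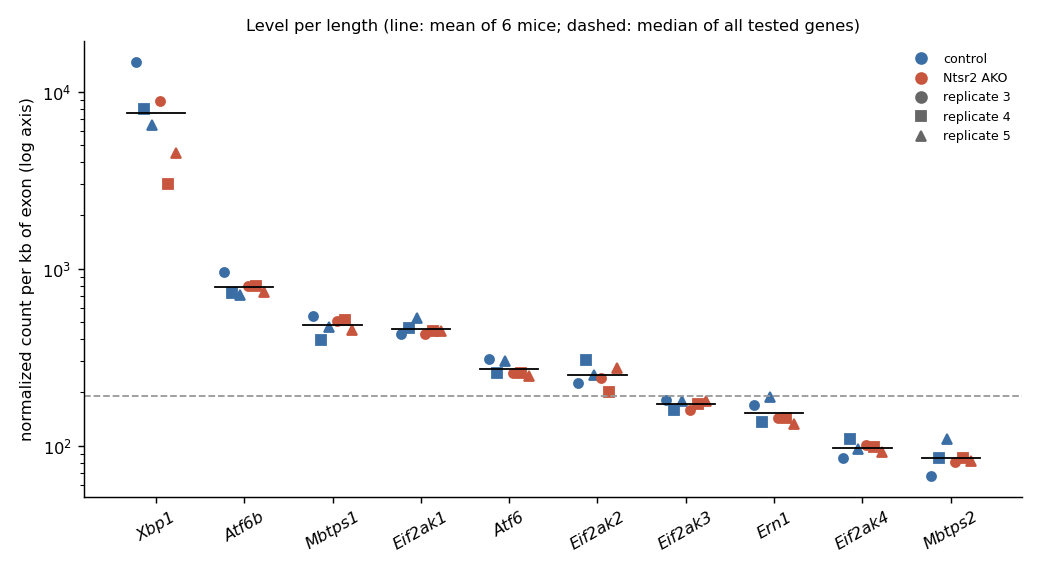
Normalized counts per kb of exon (y axis, log scale) are plotted for each sensor in 6 mice (points, coloured by genotype), with the mean (line) and the median of all genes (dashed, 191). Xbp1 lies far above the other sensors, and Eif2ak3, Ern1, Eif2ak4 and Mbtps2 have means below the dashed line.

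The order depends on the length used. With the longest transcript of each gene, Mbtps2 moved ahead of Eif2ak4. With coding length, Mbtps1, Eif2ak1 and Atf6 took places 2, 3 and 4 and Atf6b fell to place 5, while Mbtps2 moved from place 10 to place 7 and Eif2ak3 from place 7 to place 9. Atf6b was then below Mbtps1, with 1023 against 1596 normalized counts per kb of coding sequence. Xbp1 was first with each length.

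Ratios within a mouse do not depend on the size factor, and 6 of them were compared between the genotypes. The log2 ratio of Eif2ak3 to Eif2ak1 was -1.35 ± 0.19 in control and -1.28 ± 0.053 in Ntsr2 AKO mice (SD, n = 3, exact two-sided permutation p = 0.6). The ratio of PERK to the other kinases moved as little, by 0.097 against Eif2ak2 (exact permutation p = 0.8) and by -0.031 against Eif2ak4 (exact permutation p = 0.9). Atf6 over Atf6b was 0.28 ± 0.20 and 0.13 ± 0.047 (SD, n = 3, exact permutation p = 0.3), and Mbtps1 over Mbtps2 was 2.49 ± 0.50 and 2.63 ± 0.10 (SD, n = 3, exact permutation p = 0.7). Xbp1 over Ern1 had the largest shift of the 6, from 4.47 ± 0.66 to 3.81 ± 0.78 (SD, n = 3, exact permutation p = 0.4), a difference of -0.66 that was -0.29 without Ntsr2 AKO mouse 4 and -1.06 without Ntsr2 AKO mouse 3. The groups overlapped in all 6 ratios, and each adjusted p was 0.9. With 3 mice against 3 such a test cannot give a p below 0.1.

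Other genes of the same pathways were taken from 8 lists that hold 77 distinct tested genes. None passed an adjusted p of 0.05 in limma or edgeR, and DESeq2 called 2, against 1.5% of all genes. In limma 9 of the 77 (11.7%) had an unadjusted p under 0.05, against 8.35% of all genes, and edgeR gave 8. All 9 were lower in Ntsr2 AKO mice, as were 852 of the 1349 genes of the whole table with such a p.

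Of 9 genes for eIF2alpha and the regulators of its kinases, 5 were lower and 4 higher (median log2 difference -0.017). Eif2s1, which encodes eIF2alpha itself, had 4086 ± 572 normalized counts in the controls and 3113 ± 389 in Ntsr2 AKO mice (SD, n = 3) and a log2 difference of -0.39 (SE 0.15, limma adjusted p = 0.583), with all 3 Ntsr2 AKO mice below all 3 controls. Dnajc3, an ER chaperone that inhibits PERK and PKR, had a log2 difference of -0.29 (SE 0.13, limma adjusted p = 0.606), also with no overlap. Prkra, an activator of PKR that is named here after its values were seen, differed the other way, by 0.33 (SE 0.16, limma adjusted p = 0.616), with all 3 Ntsr2 AKO mice above all 3 controls. The fitted difference of Eif2s1 was larger in size than that of any eIF2alpha kinase, without passing the threshold. Eif2s1 was named partly for its small p, and its difference was not tested against those of the kinases.

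Among 10 partners of IRE1, 6 were lower and 4 higher (median -0.076), and the gut paralogue Ern2 was not in the table. Tmbim6, an ER membrane protein that restrains IRE1, and Ddrgk1, which stabilizes it, were the highest per length. Their log2 differences were -0.065 (limma adjusted p = 0.914) and 0.18 (limma adjusted p = 0.727). Bak1, an activator of IRE1 better known for apoptosis, differed by -0.36 (limma adjusted p = 0.590), and Traf2, the adaptor that links IRE1 to JNK, by -0.25 (limma adjusted p = 0.664).

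In the list of 15 XBP1s targets, 12 were lower and 3 higher (median -0.18), against 51.0% of all genes lower. With 1 mouse omitted the number lower ran from 8, without control mouse 4, to 14. Under quantile normalization it was 9, so the direction of this list depends on the mice and the scaling. Sec24d, a coat protein of vesicles leaving the ER, had 3435 ± 146 normalized counts in the controls and 2620 ± 556 in Ntsr2 AKO mice (SD, n = 3) and a log2 difference of -0.41 (limma adjusted p = 0.588). Edem2, which acts in ER-associated degradation, differed the other way, by 0.27 (limma adjusted p = 0.601), with every Ntsr2 AKO mouse above every control mouse, a pattern of 6.82% of all genes. Pdia6 differed by -0.20 (limma adjusted p = 0.757), and Ssr3, a subunit of the translocon-associated complex, differed by less than 0.01. The mean of this list by mouse did not have the order of Xbp1. Relative to the mean of the 6 mice, Xbp1 stood at 1.13 in control mouse 3 and -1.16 in Ntsr2 AKO mouse 4, and the list at -0.082 and -0.18.

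Transcripts that IRE1 is known to degrade, 6 in the list, were lower in 3 and higher in 3 (median -0.039). Col6a1, a collagen chain, had 22041 ± 1278 and 17329 ± 1691 normalized counts (SD, n = 3), with no overlap and a log2 difference of -0.35 (limma adjusted p = 0.565). Pdgfrb and Sparc differed by -0.16 (limma adjusted p = 0.803) and -0.10 (limma adjusted p = 0.907).

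All 10 ATF6 targets were lower in Ntsr2 AKO mice (median -0.32, against 51.0% of all genes lower), and all 10 were lower in each alternative analysis run. None passed in limma, and DESeq2 called 2 of them, against 1.5% of all genes. In 3 of the 10 targets all 3 Ntsr2 AKO mice were below all 3 controls, against 8.16% of all genes tested, and in the others the groups overlapped. Hspa5, which encodes the chaperone BiP that holds the 3 ER sensors inactive, had 35207, 51252 and 41146 normalized counts in the controls and 27727, 21847 and 27703 in Ntsr2 AKO mice. All 3 Ntsr2 AKO mice were below all 3 controls, and the log2 difference was -0.72 (SE 0.19, limma adjusted p = 0.522, DESeq2 adjusted p = 0.0349). Hyou1, a co-chaperone of BiP, had 4994, 5246 and 4943 normalized counts in the controls and 3779, 2986 and 2835 in Ntsr2 AKO mice, again without overlap, and a log2 difference of -0.67 (SE 0.14, limma adjusted p = 0.499, DESeq2 adjusted p = 0.0101). Calr, a lectin chaperone, differed by -0.32 (limma adjusted p = 0.675), with groups that overlapped. Control mice 4 and 5 stood highest in the mean of this list, at 0.34 and 0.28 relative to the mean of the 6 mice, and control mouse 3 stood at -0.013. Atf6 was highest in control mice 3 and 5.

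Besides ATF6 the proteases process other membrane-bound proteins. Of 8 genes for such proteins, 6 were lower and 2 higher (median -0.27), against 51.0% of all genes lower. Creb3l1, a relative of ATF6 linked to collagen secretion, had 3402, 3065 and 2921 normalized counts in the controls and 2379, 798 and 1273 in Ntsr2 AKO mice, with no overlap and a log2 difference of -1.22 (SE 0.37, limma adjusted p = 0.523, DESeq2 adjusted p = 0.143). The sterol regulators Srebf2 and Srebf1 had differences of opposite sign, -0.79 (limma adjusted p = 0.565) and 0.23 (limma adjusted p = 0.753).

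Downstream of the eIF2alpha kinases, 9 of 10 ATF4 targets were lower and 1 higher (median -0.26), against 51.0% of all genes lower. With 1 mouse omitted the number lower ran from 7 to 9. Atf3, itself a stress-induced factor, had 521, 657 and 497 normalized counts in the controls and 328, 129 and 320 in Ntsr2 AKO mice, with no overlap and a log2 difference of -1.22 (SE 0.38, limma adjusted p = 0.535). Nupr1 and Asns, the asparagine synthetase, differed by -0.44 (limma adjusted p = 0.6) and -0.24 (limma adjusted p = 0.778). In the 3 mice lowest in skeletal muscle transcripts, 2 controls and 1 Ntsr2 AKO mouse, 5 of the 10 were lower.

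**Figure D4:**
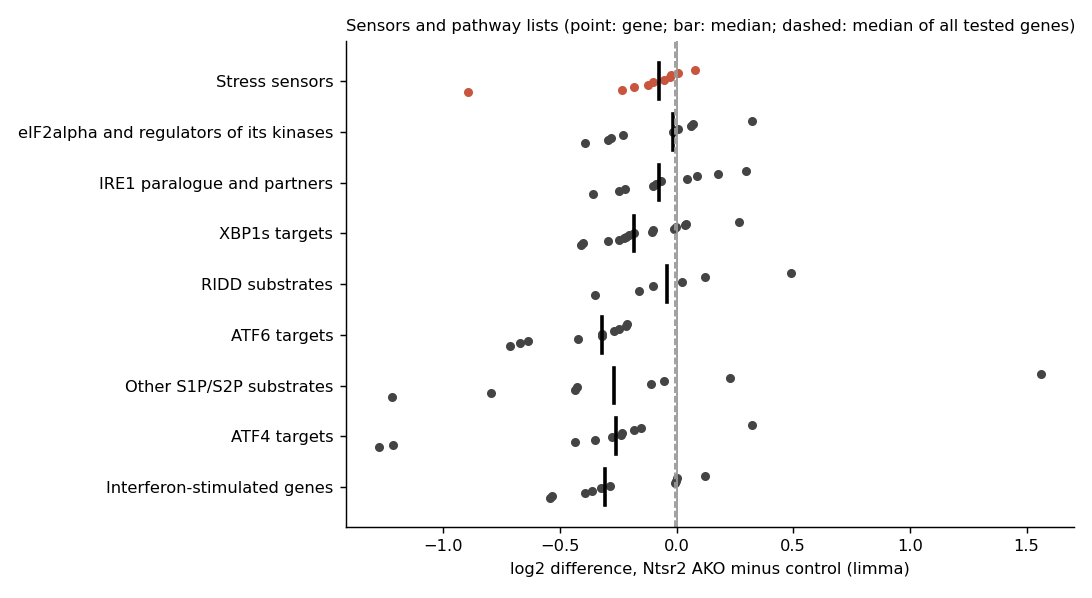
The log2 difference between Ntsr2 AKO and control mice (x axis, limma) is plotted for each gene (point) of the sensors and of 8 pathway lists, with the median of each list (bar) and of all genes (dashed). The sensors other than Xbp1 lie between -0.23 and 0.081, and all 10 ATF6 targets lie below 0.

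Eif2ak2 was read beside 10 interferon-stimulated genes, of which 8 were lower and 2 higher (median -0.31), against 51.0% of all genes lower. Without control mouse 4 the number lower was 2, so the direction of this list rests on that mouse. Ifit3, the highest per length of those named here, had 854, 3072 and 2445 normalized counts in the controls and 1248, 1187 and 2388 in Ntsr2 AKO mice. Its groups overlapped, as did those of Ifit1 (log2 difference -0.54, limma adjusted p = 0.780) and Oas1a (-0.53, limma adjusted p = 0.790).

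Control mouse 4, with the most Eif2ak2, was the highest mouse for 8 of the 10 interferon-stimulated genes. Ntsr2 AKO mouse 5, second in Eif2ak2, was among the 2 highest for 7 of them, and control mouse 3, at place 5 in Eif2ak2, was the lowest for 7. Ntsr2 AKO mouse 4, with the least Eif2ak2, was the lowest for 2. The summed level of 6 macrophage markers put the mice in the same order as the mean of the interferon-stimulated genes, from 38612 normalized counts in control mouse 4 and 30585 in Ntsr2 AKO mouse 5 down to 15922 in control mouse 3, and none of these markers was at 0 in any mouse. It ranged from 15922 to 38612 in control and from 16473 to 30585 in Ntsr2 AKO mice. The part of these markers in the Eif2ak2 values was not tested.

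**Figure D5:**
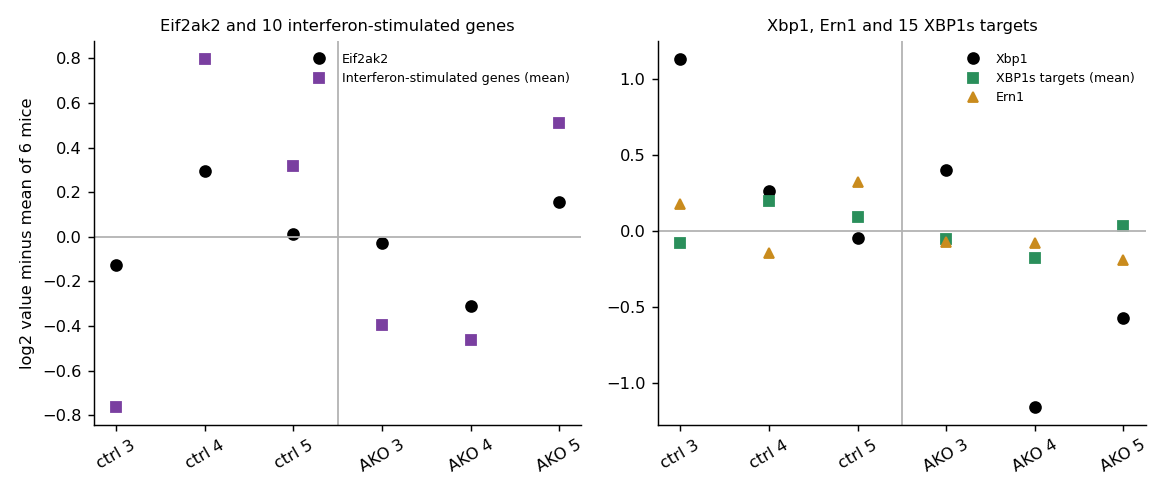
Log2 values relative to the mean of the 6 mice (y axis) are plotted by mouse (x axis, 3 control and 3 Ntsr2 AKO mice), on the left for Eif2ak2 and the mean of 10 interferon-stimulated genes and on the right for Xbp1, Ern1 and the mean of 15 XBP1s targets. Control mouse 4 is highest for both series on the left, and on the right Xbp1 spans 1.13 to -1.16 while the targets stay between -0.18 and 0.20.

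The libraries held 60405373 to 66098226 recovered reads in control and 54085088 to 56268725 in Ntsr2 AKO mice, and every Ntsr2 AKO library was shallower than every control library. Ntsr2, the deleted gene, had 83.8, 64 and 152.5 normalized counts in the controls and 3.10, 8.29 and 0 in Ntsr2 AKO mice, so it was lower in all 3 of the latter. The 6 adipocyte markers took 1.66% to 2.78% of the counts, with the lowest sum in control mouse 5, and none was at 0 in any mouse. The markers of other cells ranged, as summed normalized counts, from 15632 to 25351 in control and 14581 to 21726 in Ntsr2 AKO mice for endothelium, from 118429 to 149554 and 132878 to 191298 for fibroblasts and progenitors, from 51611 to 143074 and 52601 to 173810 for erythroid cells, from 754 to 3473 and 1087 to 3997 for plasma cells, from 183 to 878 and 311 to 358 for lymphocytes, from 3547 to 7265 and 6600 to 11097 for brown adipocytes, and from 112 to 420 and 41.5 to 72.9 for epithelium and mesothelium. The skeletal muscle sum ran from 510 to 2496577 in control and from 1567 to 176983 in Ntsr2 AKO mice. The epithelial and mesothelial sum was the only one of these in which the groups did not overlap. It took at most 0.000674% of the counts of any mouse, and 5 of its 6 markers were at 0 in some mouse, so it lies near the floor. The part of these cells in the sensor values was not tested.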

How the data were processed

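The data are RNA-seq profiles of WATs, 1 library for each of 3 control and 3 Ntsr2 AKO mice, made with a NEBNext Ultra kit. Per the study's methods and the submitters' processing notes, the authors trimmed reads with Trimmomatic, aligned them with HISAT2 to mm10 and quantified them with StringTie, whose counts derive from coverage. The versions are not given in the sources used here. The deposited values are a signal that the authors obtained by scaling the counts of every mouse with its own size factor. Division by the step of the low values gave whole reads for 100% of the values (tolerance 0.001).

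Genes averaging below 10 normalized counts were left out. Values were tested as log2(normalized count + 1), so the change of low genes is understated, with limma 3.58.1 (mean-variance trend, no covariates) in R 4.3.3, with Benjamini-Hochberg adjustment over all genes tested. edgeR 4.0.16 and DESeq2 1.42.0 were run on recovered reads. Other alternatives were pseudocounts of 0.1 and 5, no filter on low genes, a stricter filter of 50, quantile normalization, no trend, the replicate number as a block, other gene lengths and the omission of each mouse. A comparison of only the mice lowest in skeletal muscle transcripts was added after seeing the data. The procedures were tested on simulated data.

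Exons and positions are from GENCODE M21 on GRCm38, in which 19726 of 21456 gene names matched, and promoter windows are from RefSeq. The members, the pathway lists and the marker lists were chosen with earlier results of these data known. All 10 sensors were named, and of each list the 2 genes highest per length and the 2 with the smallest p. The values of 1 gene named by this rule are not reported here. Nothing in the labels says that same-numbered mice were paired, and their deviations correlated by 0.45, -0.24 and 0.41. Between control and Ntsr2 AKO mice of different numbers the correlations ran from -0.52 to 0.26.
The libraries are taken to be separate mice, which the labels do not state, and p-values measure the spread between these libraries.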

Additional observations from a re-analysis of the deposited data

How the results depend on the processing

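The number of sensors past an adjusted p of 0.05 was 0 under every alternative run, and the lowest adjusted p of any sensor was 0.393, for Xbp1 without Ntsr2 AKO mouse 3. With the omission of 1 mouse, 50 of 60 differences kept their sign and 10 reversed, and with the other alternatives 97 of 100 kept it and 3 reversed. Those 3 were Eif2ak3 (0.035) and Atf6b (0.068) under quantile normalization, which left 6 sensors and 44.4% of all genes lower with a sensor median of -0.0090, and Mbtps2 (0.089) in the 3 mice lowest in skeletal muscle transcripts, of which 1 is a Ntsr2 AKO mouse. Omitting each mouse in turn gave -0.23 to 0.0026 for Eif2ak2, -0.086 to 0.022 for Eif2ak3, -0.082 to 0.10 for Eif2ak4, -0.11 to 0.11 for Atf6b, -0.036 to 0.19 for Mbtps1 and -0.23 to 0.12 for Mbtps2. The ratio differences ranged from -0.082 to 0.23 (Eif2ak3 over Eif2ak2), from -0.19 to 0.097 (Eif2ak3 over Eif2ak4), from -0.25 to -0.045 (Atf6 over Atf6b), from -1.06 to -0.29 (Xbp1 over Ern1) and from -0.037 to 0.42 (Mbtps1 over Mbtps2). In the whole table DESeq2 called 220 genes and limma 1, while the other settings called 0 or 1, and the genes with an unadjusted p under 0.05 numbered 647 without Ntsr2 AKO mouse 4 and 309 in the 3 mice lowest in skeletal muscle transcripts. The causes were not tested.

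Whether the same-numbered mice share more than a number is not known from the labels. With the replicate block the adjusted p of Xbp1 was 0.515 at a difference of -0.89 (unadjusted p 0.00671), and 0 genes of the whole table passed. By the exact sign-flip test over 3 pairs the ratio of Xbp1 to Ern1 had p = 0.25, the smallest that 3 pairs allow.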
